A study of Mus musculus with 5 samples.

Results

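The genes described here carry glucose into the cell, start and finish glycolysis, and make and export lactate. They were chosen by symbol and are 10 of the 24421 genes listed in both deposited tables: the glucose transporter genes Slc2a1 and Slc2a3, the hexokinase genes Hk1 and Hk2, the phosphofructokinase genes Pfkl and Pfkp, the pyruvate kinase gene Pkm, the lactate dehydrogenase genes Ldha and Ldhb, and the lactate exporter gene Slc16a3. All 10 were found in both tables, and all 10 passed the filter on low values in each comparison. RNA was sequenced from 5 mouse libraries, 1 per group, so no difference below has a replicate check or a p-value. The groups were mouse embryonic fibroblasts (MEFs) grown from CF-1 embryos, a line of induced pluripotent stem cells (iPSCs), untreated V6.5 embryonic stem cells (mESCs), V6.5 cells carrying a non-targeting control shRNA (NTC), and V6.5 cells carrying an shRNA against Gldc (shGldc), the glycine decarboxylase of the glycine cleavage system. MEFs, iPSCs, and mESCs are in 1 table, and NTC and shGldc are in another that was made separately. By the labels the pluripotent cells were feeder-independent and grown in serum replacement medium with LIF and sodium pyruvate, and the MEFs in serum medium, so cell type and medium cannot be told apart. The methods also describe culture of such cells on feeders in serum. A single iPSC line and a single embryonic stem cell line stand for their kinds, and shGldc is 1 shRNA, whose identity among the Gldc shRNAs of the study is unclear from the labels.

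Glycolysis converts glucose to pyruvate in the cytosol. GLUT transporters of the SLC2 family let glucose in, hexokinase traps it as glucose phosphate, phosphofructokinase commits it to the pathway, and pyruvate kinase makes pyruvate. Lactate dehydrogenase then reduces pyruvate to lactate and regenerates NAD+, and monocarboxylate transporters carry lactate out together with a proton. Most steps have several paralogous enzymes, which differ in tissue range, affinity, and regulation. Cultured pluripotent cells are known for active glycolysis even in oxygen, and proliferating fibroblasts also make lactate.

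Levels are given as FPKM, in which the fragments of a gene are scaled by transcript length and by the fragments mapped in the library, so levels of different genes can be set side by side. A log2 ratio is the difference of log2(FPKM + 0.1) between 2 libraries, a scale that understates differences of low genes. A gene was counted as higher or lower when this difference was at least 1 in size, which is 2-fold. The FPKM values summed to between 466650 in MEFs and 576470 in iPSCs. The steps between low values put the depth at about 22100000 to 29000000 fragments per library, uncertain by a factor of 2 for NTC and, less so, for shGldc. The lowest member value of the whole set, Slc2a3 in MEFs, corresponds to about 368 fragments (exact 95% Poisson interval 331 to 408, which covers counting error only). This was the least precise member value, with an interval of 10.4% to either side, and what could not be measured is the spread between cultures. Gldc, the targeted gene, was at 0.12 FPKM in MEFs, 70.8 in iPSCs, 59.7 in mESCs, 74.7 in NTC, and 2.07 in shGldc. The 8 pluripotency markers summed to 3.28 FPKM in MEFs and to 3753 to 7023 in the 4 pluripotent libraries, with every marker at 1 FPKM or more in those 4. The 8 fibroblast markers summed to 10108 FPKM in MEFs and to between 18.7 and 165.1 in the others. None of them was at 0 in iPSCs or mESCs, and 7 were at 1 FPKM or more in mESCs, against 4 in iPSCs. In mESCs Col1a1 was at 20.5 FPKM, 0.56% of its MEF level. MEFs also held 7 of 8 macrophage markers at 1 FPKM or more, with a sum of 300.8 FPKM against 10.9 to 20.6 elsewhere, and 6 of the 8 were listed at 0 in NTC and shGldc. In shGldc the 8 differentiation markers summed to 27.4 FPKM against 12.99 in NTC. Gata6 was at 8.22 against 0.46 and Gata4 at 7.84 against 2.38, whereas T, Mixl1, and Nes had log2 ratios between -0.13 and 0.23. Sox17, Foxa2, and Pax6 were below 1 FPKM in both libraries. The part of these other cell types or states in the ratios below was not tested, and in bulk RNA fewer cells of a type and less RNA per cell cannot be told apart.

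Promoters are shown for the 2 lactate dehydrogenase genes, whose levels differed in opposite directions between MEFs and either untreated pluripotent library, for Slc16a3, which had the lowest shGldc over NTC ratio of the 10, and for Slc2a1, which barely differed there. Each is the 250 bases before a RefSeq start on GRCm38.p6, read 5′ to 3′ on the gene's strand, with each ACGTG, or CACGT where it lies on the other strand, in capitals. ACGTG is a form of the core of the hypoxia response element, to which HIF binds, and CACGTG is the E-box that MYC family proteins bind. Both strands were searched, matches that overlap were counted as 1 site, and every CACGTG also holds ACGTG.
Ldha, chr7:46845554-46845803, plus strand: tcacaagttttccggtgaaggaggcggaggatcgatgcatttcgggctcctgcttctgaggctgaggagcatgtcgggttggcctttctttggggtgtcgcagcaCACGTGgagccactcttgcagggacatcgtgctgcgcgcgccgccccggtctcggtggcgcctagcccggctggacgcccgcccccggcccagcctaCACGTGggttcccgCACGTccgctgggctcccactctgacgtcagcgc
Ldhb, chr6:142507958-142508207, minus strand: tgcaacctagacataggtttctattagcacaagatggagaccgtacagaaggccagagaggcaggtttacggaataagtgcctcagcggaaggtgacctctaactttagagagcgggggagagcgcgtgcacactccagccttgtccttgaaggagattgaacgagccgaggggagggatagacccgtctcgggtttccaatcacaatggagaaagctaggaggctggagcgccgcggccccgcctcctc
Slc16a3, chr11:120948817-120949066, plus strand: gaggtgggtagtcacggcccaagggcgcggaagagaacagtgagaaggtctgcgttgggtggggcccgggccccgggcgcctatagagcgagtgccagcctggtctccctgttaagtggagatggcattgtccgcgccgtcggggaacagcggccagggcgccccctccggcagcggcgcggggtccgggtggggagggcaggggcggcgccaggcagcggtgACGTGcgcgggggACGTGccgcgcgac
Slc2a1, chr4:119108495-119108744, plus strand: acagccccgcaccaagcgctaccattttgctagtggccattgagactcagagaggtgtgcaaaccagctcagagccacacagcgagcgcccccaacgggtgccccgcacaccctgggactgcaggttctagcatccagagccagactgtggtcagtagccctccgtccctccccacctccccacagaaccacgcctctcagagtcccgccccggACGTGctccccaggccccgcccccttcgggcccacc
The Ldha window held 3 sites, 145, 48, and 34 bases before the start, of which 2 were CACGTG, and the window of its second start held none. Ldhb held none. The Slc16a3 window held 2 sites, 27 and 14 bases before the start, and Slc2a1 held 1 at 36 bases. By the GENCODE M21 gene models of mm10, the Ldha and Slc16a3 windows lie inside the span of their genes, which also have transcripts that start farther upstream, and the Slc2a1 window reaches into its gene, whereas the Ldhb window ends just before its gene. A promoter was found for 9 of the 10 members, with 12 starts in all. At least 1 ACGTG was present in 5 of these 12 windows, each of a different member, and those not shown above are Hk2, with 2 sites, and Pkm, with 1 before the second of its 2 starts. Neither start of Hk1 and no start of Pfkl or Pfkp had a match. Over all 32851 mouse promoter windows of the same length, 16.6% held at least 1 ACGTG, 1.95% held 2 or more, 0.26% held 3 or more, and 6.02% held a CACGTG. These are letter matches, not measured binding.

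**Figure D1:**
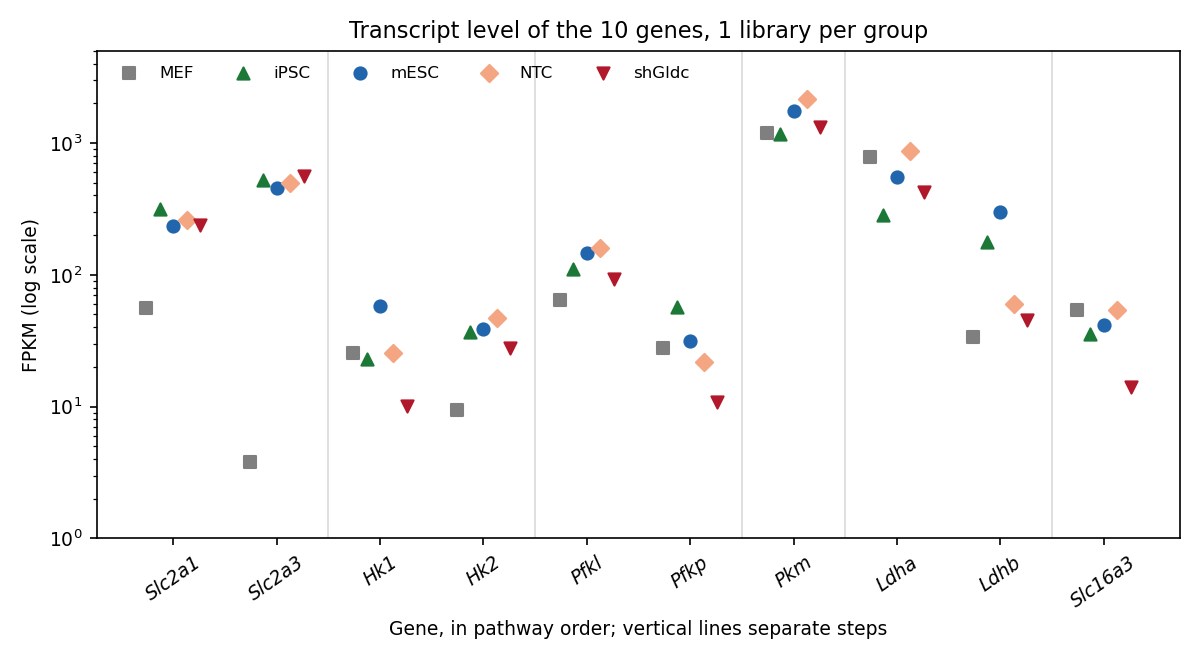
Transcript level in FPKM, on a log axis, of the 10 genes in pathway order, with 1 point per library and no error bars since each group was 1 library. Slc2a3 in MEFs, at 3.77, lies far below its other 4 points, and the shGldc point is the lowest of the 5 for Hk1, Pfkp, and Slc16a3.

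The summed transcript level of the glucose uptake genes differed more between MEFs and the untreated pluripotent cells than that of any other step. It was 11.5-fold higher in mESCs than in MEFs, and that of the next step, hexokinase, was 2.79-fold higher. Slc2a3 (chr6:122727809-122801640 of mm10, minus strand) encodes GLUT3, a high-affinity transporter known from neurons and from the early embryo. Its level was 3.77 FPKM in MEFs, 520.5 in iPSCs, 455.5 in mESCs, 497.3 in NTC, and 556.7 in shGldc. Only MEFs were low, and the 4 pluripotent libraries lay within a narrow range of each other. Over MEFs its log2 ratio was 6.88 for mESCs and 7.07 for iPSCs, which in FPKM is 121-fold and 138-fold. Slc2a1 (chr4:119108711-119137983, plus strand) encodes GLUT1, the widely expressed basal transporter. It was at 56.3 FPKM in MEFs, 312.7 in iPSCs, 232.5 in mESCs, 259.8 in NTC, and 239.7 in shGldc. Here too MEFs were the lowest library, with log2 ratios of 2.05 in mESCs and 2.47 in iPSCs over MEFs. Slc2a3 thus made up 6.29% of the FPKM of this pair in MEFs, 62.5% in iPSCs, 66.2% in mESCs, 65.7% in NTC, and 69.9% in shGldc. The share does not depend on how a library or a table was scaled. MEFs were the only library in which Slc2a1 was the more abundant of the pair, by 14.9-fold.

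The uptake genes were nearly level in the knockdown. Slc2a1 had a log2 ratio of -0.12 in shGldc over NTC and Slc2a3 one of 0.16, and their sum in shGldc was 105.2% of that in NTC. In mESCs, untreated cells of the same line but in the other table, both genes were within a log2 ratio of 0.16 of NTC. The order of the 4 pluripotent libraries in either gene therefore rests on small differences with no measured spread.

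Of the 11 other glucose transporter genes of the list used here, 6 passed the filter of 1 FPKM in at least 1 library for mESCs over MEFs, and 3 of these were at least 2-fold lower and 1 higher, beside 23.3% and 30.3% of all genes compared. Slc2a10 was the lowest, at 4.83 FPKM in MEFs and 0.09 in mESCs. Slc2a5, the fructose transporter GLUT5, was the highest in ratio, at 0.01 FPKM in MEFs and 2.197 in mESCs. Slc2a8 was the most abundant of the 11 in the pluripotent cells, at 23.6 FPKM in iPSCs, 14.4 in mESCs, 17.7 in NTC, and 10.5 in shGldc, against 8.77 in MEFs. Slc2a6 was at 4.88 FPKM in MEFs and was listed at 0 in NTC and shGldc. Slc2a9 was at 1.91 FPKM in MEFs and at most 0.23 elsewhere, and Slc2a4, the insulin-regulated GLUT4, was between 0.25 FPKM in shGldc and 1.61 in MEFs. The sodium-coupled transporter gene Slc5a1 was at 2.83 FPKM in NTC and 2.502 in shGldc, at 0.18 in mESCs, and was listed at 0 in MEFs. None of these levels came near those of Slc2a1 or Slc2a3 in the pluripotent cells.

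The leading gene of the hexokinase pair differed between libraries. Hk2 (chr6:82725025-82774454, minus strand) encodes the inducible hexokinase of muscle, fat, and many dividing cells. It was at 9.44 FPKM in MEFs, 36.7 in iPSCs, 39.0 in mESCs, 47.2 in NTC, and 28.0 in shGldc. MEFs were lowest, and the log2 ratio over MEFs was 2.04 in mESCs and 1.95 in iPSCs. Hk1 (chr10:62268855-62379908, minus strand) encodes the broadly expressed hexokinase that binds mitochondria. It was at 25.4 FPKM in MEFs, 23.0 in iPSCs, 58.2 in mESCs, 25.5 in NTC, and 10.0 in shGldc. Only mESCs were high and only shGldc was low, while MEFs, iPSCs, and NTC lay close together. Hk1 was therefore higher in mESCs than in MEFs (log2 ratio 1.19) but not in iPSCs (-0.14), and iPSCs were 2.53-fold below mESCs. The share of Hk2 in the pair was 27.1% in MEFs, 61.5% in iPSCs, 40.1% in mESCs, 65.0% in NTC, and 73.6% in shGldc. Hk2 was the more abundant gene in iPSCs, NTC, and shGldc, and Hk1 in MEFs and mESCs.

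In shGldc over NTC the log2 ratio was -1.33 for Hk1 and -0.75 for Hk2, and the pair summed to 52.3% of its NTC level. NTC itself was lower than untreated mESCs in Hk1 by a log2 ratio of -1.19, a difference between 2 control libraries of 1 line that is nearly as large as that of the knockdown. Of the other hexokinase genes, Hkdc1, which lies next to Hk1 on chromosome 10, was at 0.06 FPKM in NTC and 1.11 in shGldc. It was at 0.42 in mESCs and 1.33 in iPSCs, and was listed at 0 in MEFs. Its log2 ratio in shGldc was 2.93 over NTC and 1.23 over untreated mESCs. Hk3, known from blood cells, was at 2.31 FPKM in MEFs, beside the macrophage markers there, and at 0.05 or less in the other libraries.

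At the phosphofructokinase step the liver-type gene Pfkl (chr10:77986947-78010083, minus strand) led in all 5 libraries. It was at 64.6 FPKM in MEFs, 110.8 in iPSCs, 147.3 in mESCs, 159.5 in NTC, and 92.3 in shGldc. MEFs were lowest, and shGldc lay between MEFs and iPSCs. Pfkp (chr13:6579768-6648777, minus strand), the platelet-type gene, was at 27.8 FPKM in MEFs, 56.7 in iPSCs, 31.2 in mESCs, 21.9 in NTC, and 10.9 in shGldc. Its order differed from that of Pfkl, with iPSCs the highest. Pfkl had a log2 ratio over MEFs of 1.19 in mESCs and 0.78 in iPSCs, and Pfkp one of 0.17 and 1.03. The ratio of Pfkp in mESCs turned to -0.07 once all libraries had been given an equal FPKM sum, so no direction can be given for it. Pfkp held 30.1% of the pair in MEFs, 33.9% in iPSCs, 17.5% in mESCs, 12.1% in NTC, and 10.6% in shGldc. The V6.5 libraries thus had lower shares than MEFs and iPSCs, whichever table they came from.

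In the knockdown the log2 ratio was -0.79 for Pfkl and -0.999992 for Pfkp. The Pfkp value lay just inside the 2-fold threshold and was not counted as lower, although the FPKM itself was 49.8% of that in NTC. The pair summed to 56.9% of its NTC level in shGldc. Pfkm, the muscle-type gene, was at 15.6 FPKM in MEFs, 40.3 in iPSCs, 57.5 in mESCs, 24.7 in NTC, and 18.9 in shGldc, above Pfkp in mESCs, NTC, and shGldc. Of Pfkp, 5.10% of 50-base stretches also lie in transcripts of the neighbouring gene Pitrm1 on the other strand, and the strand setting of the counting is not given in the sources used here.

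**Figure D2:**
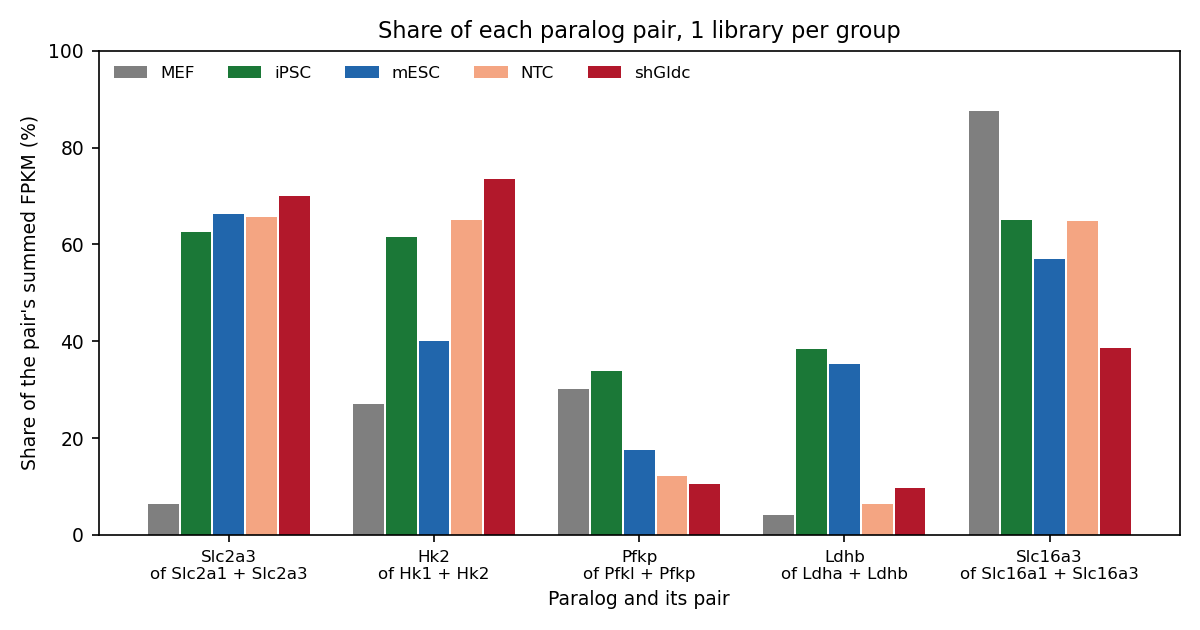
Share, in percent of the summed FPKM of a pair, held by 1 paralog in each of the 5 libraries, 1 bar per library and no error bars since each group was 1 library. MEFs stand out for Slc2a3 (6.29%) and Slc16a3 (87.6%), whereas for Ldhb NTC (6.41%) and shGldc (9.67%) stand with MEFs (4.08%) and not with mESCs (35.2%).

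Pkm (chr9:59656368-59679375, plus strand), the pyruvate kinase gene of most tissues other than liver and red cells, was the most abundant member in all 5 libraries and had the narrowest range. It was at 1189 FPKM in MEFs, 1172 in iPSCs, 1731 in mESCs, 2148 in NTC, and 1309 in shGldc. MEFs and iPSCs were nearly level, the 2 control V6.5 libraries were higher, and shGldc lay between. The log2 ratio was 0.54 in mESCs and -0.02 in iPSCs over MEFs and -0.71 in shGldc over NTC, where the level was 60.9% of NTC. Of its 50-base stretches, 25.8% are shared with other annotated genes, 8 genes in all, of which the 3 looked up are not in the tables, so its level is less certain than that of Hk2 or Slc16a3, which share none. The gene-level value does not separate the M1 and M2 splice forms. The splicing factor genes Ptbp1, Hnrnpa1, Hnrnpa2b1, and Srsf3, known for favouring the M2 form, were all expressed, and their log2 ratios in shGldc over NTC were between -0.23 and -0.02. Ptbp1 was at 191.8 FPKM in MEFs, 153.6 in iPSCs, 294.7 in mESCs, 396.2 in NTC, and 365.7 in shGldc. Pklr, the liver and red cell gene, was at 2.01 FPKM in NTC, 0.37 in shGldc, 1.03 in mESCs, and 0.63 in iPSCs, and was listed at 0 in MEFs, with 20.5% of its 50-base stretches also in the neighbouring gene Hcn3.

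The 2 lactate dehydrogenase genes differed in opposite directions between MEFs and mESCs and between the 2 control V6.5 libraries. Ldha (chr7:46841475-46855627, plus strand) encodes the subunit that favours the making of lactate, and Ldhb (chr6:142490249-142507957, minus strand) the heart-type subunit that favours its use. Ldha was at 786.3 FPKM in MEFs, 284.0 in iPSCs, 549.2 in mESCs, 869.5 in NTC, and 422.3 in shGldc. NTC and MEFs were high, and iPSCs were lowest. Ldhb was at 33.5 FPKM in MEFs, 176.4 in iPSCs, 298.6 in mESCs, 59.6 in NTC, and 45.2 in shGldc. Only the iPSC and untreated mESC libraries were high. Over MEFs the log2 ratio of Ldha was -0.52 in mESCs and -1.47 in iPSCs, and that of Ldhb was 3.15 and 2.39. Ldhb was 35.2% of the pair in mESCs, 38.3% in iPSCs, 4.08% in MEFs, 6.41% in NTC, and 9.67% in shGldc. The summed level of the pair was 819.8 FPKM in MEFs and 847.7 in mESCs, so between these 2 libraries the make-up of the pair differed and its sum, as deposited, hardly did. The FPKM of all genes summed to 466650 in MEFs and 550627 in mESCs, so the comparison of the pair's sums depends on scaling. In iPSCs the sum was 460.4 FPKM, 56.2% of that in MEFs.

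NTC and untreated mESCs are both control V6.5 cells, and in Ldhb they were 5.01-fold apart, with a log2 ratio of -2.32, while Ldha had a ratio of 0.66 the other way. Since these 2 libraries are in separately made tables, differences between cultures, the shRNA vector, and the tables cannot be told apart here. Of the 50-base stretches of Ldhb, 20.99% are shared with the copy Gm5514, and 9.26% of those of Ldha with other annotated genes, and the copies checked are not listed in either table. In shGldc over NTC the log2 ratio was -1.04 for Ldha and -0.40 for Ldhb, and the pair summed to 50.3% of its NTC level. Against untreated mESCs in place of NTC, the shGldc ratio of Ldha was -0.38 and that of Ldhb -2.72. Of the other lactate dehydrogenase genes, the germ cell gene Ldhc was at most 1.63 FPKM and Ldhd, which acts on D-lactate, was at most 2.30, with 40.2% of its 50-base stretches also in a neighbouring gene. Ldhal6b was at most 1.35 FPKM, and all of its 50-base stretches also lie in a gene on the other strand.

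Slc16a3 (chr11:120948480-120960868, plus strand), which encodes MCT4, the exporter of strongly glycolytic cells, had the lowest ratio of the 10 in the knockdown. It was at 54.0 FPKM in MEFs, 35.4 in iPSCs, 41.6 in mESCs, 53.7 in NTC, and 14.0 in shGldc. MEFs and both V6.5 controls lay within 1.299-fold of each other in FPKM, and shGldc alone was far below. The log2 ratio was -1.93 in shGldc over NTC, 26.2% of the NTC level in FPKM, against 0.37 in NTC over mESCs. Against untreated mESCs the shGldc ratio was -1.56. Over MEFs the ratios were -0.38 in mESCs and -0.61 in iPSCs. Slc16a1, which encodes MCT1, a carrier that moves lactate both ways, was at 7.63 FPKM in MEFs, 19.0 in iPSCs, 31.3 in mESCs, 29.2 in NTC, and 22.3 in shGldc. Slc16a3 made up 87.6% of the pair in MEFs, 65.1% in iPSCs, 57.1% in mESCs, 64.8% in NTC, and 38.7% in shGldc. Only in shGldc was Slc16a1 the more abundant gene. Bsg, which encodes basigin, the partner both carriers need at the membrane, was between 384.0 and 475.4 FPKM in all 5 libraries. Emb, which encodes the related partner embigin, was at 3.31 FPKM in MEFs, 18.6 in iPSCs, 28.1 in mESCs, 6.96 in NTC, and 10.4 in shGldc.

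Counted over the 10 members, mESCs had 6 genes at least 2-fold higher than MEFs (Slc2a1, Slc2a3, Hk1, Hk2, Pfkl, and Ldhb) and 0 lower, where 30.3% of the 12840 genes compared were higher by as much and 23.3% lower. By any size, 8 members were higher and 2 lower, beside 56.4% and 43.6% of genes, and the median log2 ratio of the members was 1.19, against 0.25 for all genes. iPSCs had 5 members higher than MEFs (Slc2a1, Slc2a3, Hk2, Pfkp, and Ldhb) and 1 lower (Ldha), beside 31.5% and 21.3% of 13032 genes, with a median of 0.90 against 0.31. By any size, 6 members were higher, beside 58.4% of genes, and 4 lower, beside 41.6%. Both comparisons use the same MEF library. Giving all libraries an equal FPKM sum brought the all-gene medians to 0.01 and 0.02. Then 4 members were at least 2-fold higher in either comparison (Slc2a1, Slc2a3, Hk2, and Ldhb), beside 3294 of 12840 and 3270 of 13032 genes. The members lower by as much were still 0 and 1, beside 3450 and 3372 genes. Slc2a1, Slc2a3, and Hk2 were at least 2-fold higher than MEFs in each of the 4 pluripotent libraries, and no member was lower in each, where 20.6% and 14.9% of 13656 genes met these conditions. The share for the members, 3 of 10, is near that background.

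iPSCs and mESCs differed less. No member was at least 2-fold higher in iPSCs and 1 was lower, Hk1, where 10.1% and 7.44% of 12323 genes were, and 2 were lower, Ldha being the second, once all libraries had an equal FPKM sum. In direction, 7 of 10 members were lower in iPSCs by any size, beside 47.4% of all genes, and 3 higher, beside 52.6%, with a median log2 ratio of -0.32 against 0.04. Ldha was the next lowest at -0.95, and Pfkp was the highest at 0.86.

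**Figure D3:**
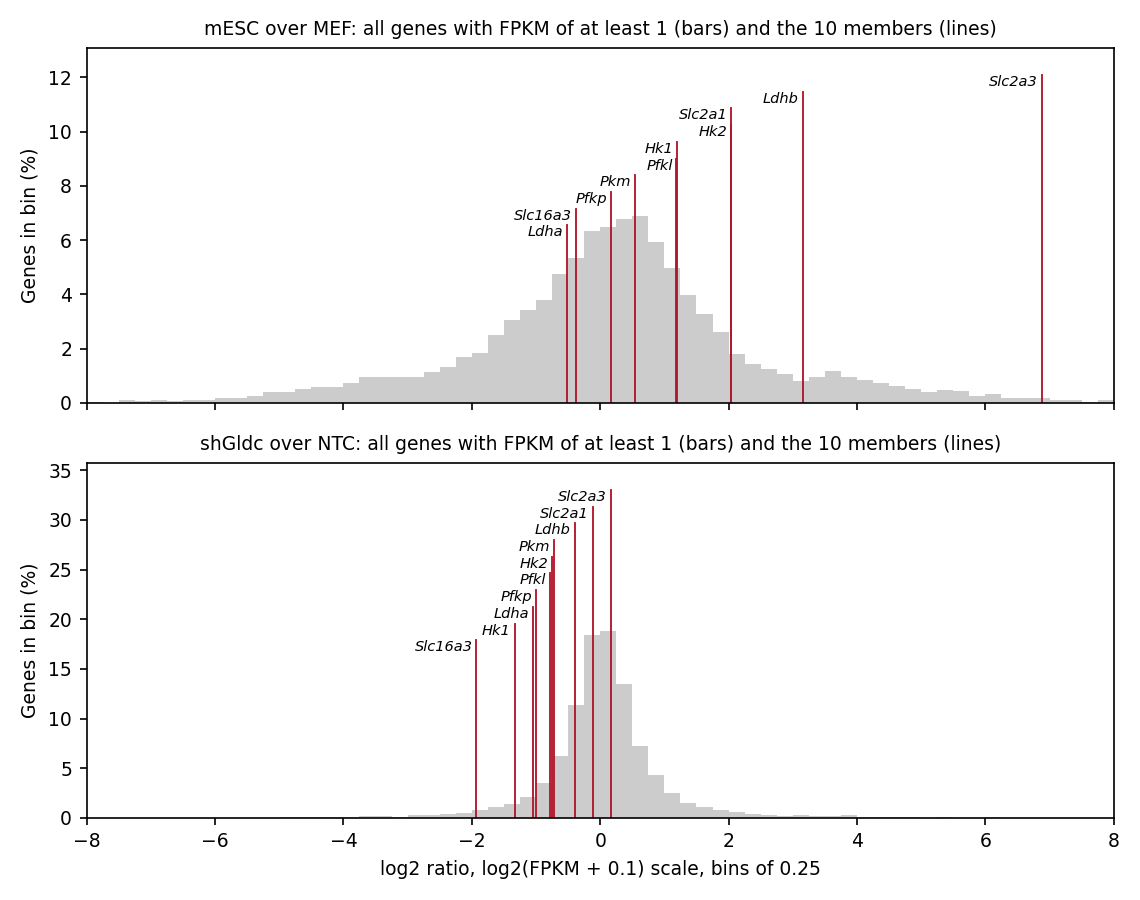
Share of genes per bin of log2 ratio (grey bars, all genes with at least 1 FPKM in either library) for mESC over MEF and shGldc over NTC, with the 10 members as red lines whose heights serve only to keep the names apart. In the upper panel Slc2a3 lies far to the right at 6.88, and in the lower panel 9 of the 10 lines lie below 0, down to -1.93 for Slc16a3.

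In shGldc over NTC, 9 of the 10 members were lower by any size, beside 47.2% of the 11969 genes compared, and Slc2a3 was the exception, as 1 higher member beside 52.8% of genes. The median log2 ratio of the members was -0.77, against 0.04 for all genes. At least 2-fold lower were 3 members (Hk1, Ldha, and Slc16a3) and none was higher, where 7.68% and 8.97% of genes were. The step totals in shGldc were 105.2% of NTC at uptake, 52.3% at hexokinase, 56.9% at phosphofructokinase, 60.9% at pyruvate kinase, 50.3% at lactate dehydrogenase, and 26.2% at export. The uptake total was thus nearly level, and the other 5 of these 6 step totals were at 60.9% of NTC or less. Of the 8 pluripotency markers, 7 were also lower in shGldc than in NTC, with a median log2 ratio of -0.56 and the lowest, Utf1, at -0.87, and their part in these values was not tested. The 10 members together held 0.79% of the FPKM sum in NTC and 0.50% in shGldc, against 0.65% in untreated mESCs, 0.47% in iPSCs, and 0.48% in MEFs.

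The 2 control V6.5 libraries show how far single libraries of the line can lie apart. For NTC over mESC, which shares the NTC library with the knockdown comparison, 2 members were at least 2-fold lower (Hk1 and Ldhb) and none was higher, beside 10.3% and 4.99% of 12048 genes. Of the 10, 7 were higher by any size and 3 lower, beside 45.6% and 54.4% of all genes, and the median was 0.14 against -0.06. For shGldc over mESC, 4 members were at least 2-fold lower (Hk1, Pfkp, Ldhb, and Slc16a3) and 8 were lower by any size, beside 13.9% and 51.2% of 12237 genes. None was at least 2-fold higher and 2 were higher by any size, beside 9.89% and 48.8%, and the median was -0.58 against -0.02. Hk1 and Slc16a3 were counted as at least 2-fold lower in shGldc against either control. Pfkp joined them with a pseudocount of 0.01, with an equal FPKM sum, or with centring on the median of all genes. For Slc2a1, Hk2, Pfkl, Pkm, Ldha, and Slc16a3 the ratio over mESC was smaller in size than that over NTC, because NTC was the higher control.

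**Figure D4:**
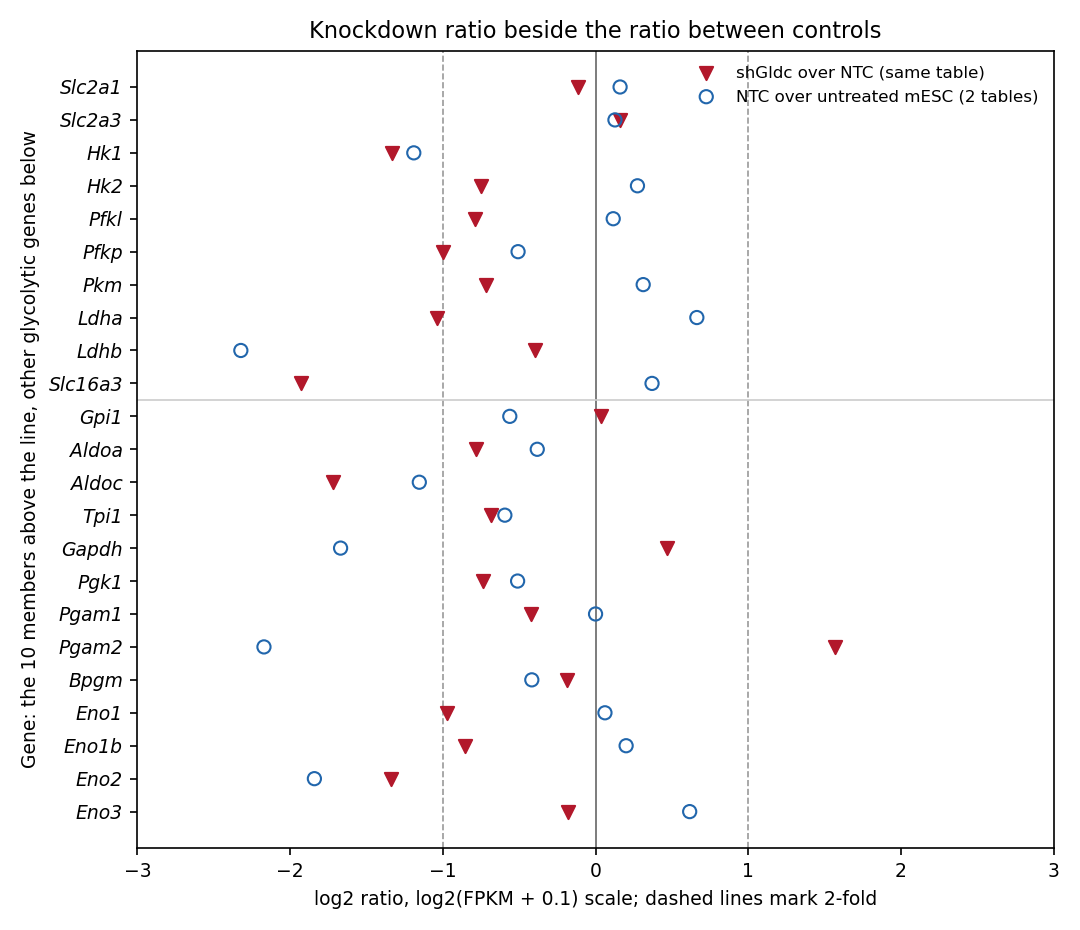
log2 ratio of shGldc over NTC (red triangles, same table) and of NTC over untreated mESC (open blue circles, across tables) for the 10 members above the line and other glycolytic genes below it, with dashed lines at 2-fold. For Slc16a3 the triangle (-1.93) and the circle (0.37) lie on opposite sides of 0, and for Ldhb the circle (-2.32) lies farther from 0 than the triangle (-0.40).

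The other enzymes of the pathway, glucose phosphate isomerase and those from aldolase to enolase, were followed with a list of 17 genes. In shGldc over NTC, 14 passed the filter, of which 10 were lower by any size and 4 higher, beside 47.2% and 52.8% of all genes, with a median log2 ratio of -0.56 against 0.04. In the same comparison 7.68% of all genes were at least 2-fold lower and 8.97% higher. At least 2-fold lower were Aldoc (-1.72) and Eno2 (-1.34), the aldolase and enolase genes known from neurons. Both were also lower in NTC than in untreated mESCs, with log2 ratios of -1.15 and -1.84. At least 2-fold higher was 1 gene, Pgam2 (1.57), the muscle phosphoglycerate mutase, whose ratio was -0.60 against untreated mESCs. In shGldc over mESC 12 of 14 genes of the list were lower by any size and 6 at least 2-fold lower, beside 51.2% and 13.9% of all genes, with a median of -0.78. Aldoc, Eno2, and Pgam2 reached at most 14.6 FPKM in any library, whereas the abundant genes differed by less. Eno1, the main enolase gene, was at 1124 FPKM in MEFs, 1029 in iPSCs, 1976 in mESCs, 2062 in NTC, and 1049 in shGldc, a ratio of -0.97 in shGldc over NTC. Aldoa, the main aldolase gene, was at 1014 FPKM in MEFs, 1224 in iPSCs, 1345 in mESCs, 1032 in NTC, and 600.4 in shGldc, a ratio of -0.78. Pgk1 (-0.74), the phosphoglycerate kinase gene, and Tpi1 (-0.69), for triose phosphate isomerase, were of like size, and Pgam1 was at -0.43. Eno1b was at -0.86, but 85.2% of its 50-base stretches are shared with Eno1 and copies. Of the others, Pgk1 shares 53.9% with other annotated genes, Pgam1 36.2%, and Eno1 itself 26.0%. Gpi1, the second enzyme of the pathway, was level at 279.7 FPKM in NTC and 286.6 in shGldc. Gapdh was at 31.7 FPKM in NTC and 43.8 in shGldc. Its values, between 25.04 and 101.1 FPKM in the 5 libraries, are far below those of its neighbours in the pathway, and 25.1% of its 50-base stretches are shared with other annotated genes. Bpgm was at 12.3 FPKM in NTC and 10.8 in shGldc, and the muscle enolase gene Eno3 at 16.1 and 14.2.

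The same list was lower in iPSCs than in mESCs throughout: of 13 genes that passed, 13 were lower by any size, beside 47.4% of all genes, and 2 of them at least 2-fold, beside 7.44%, with a median log2 ratio of -0.67 against 0.04. In mESCs over MEFs 9 of 13 were higher by any size, beside 56.4% of all genes, with a median of 0.81. In iPSCs over MEFs 7 of 13 were higher, beside 58.4%, with a median of 0.13. Tpi1 was at 471.3 FPKM in MEFs, 213.4 in iPSCs, and 381.1 in mESCs, and Pgk1 at 440.0, 262.4, and 444.8. For NTC over mESC 10 of 13 were lower by any size, beside 54.4% of all genes, and 4 at least 2-fold lower, beside 10.3%, with a median of -0.51.

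Genes that set the flux through phosphofructokinase or run the pathway backwards were mostly low. Tigar, whose product lowers the sugar phosphate that activates phosphofructokinase, was at 4.58 FPKM in MEFs, 23.4 in iPSCs, 25.6 in mESCs, 30.8 in NTC, and 26.8 in shGldc. The kinase genes Pfkfb1, Pfkfb2, Pfkfb3, and Pfkfb4, which make or remove that activator, were at 4.58 FPKM or less in every library. Of the 11 genes of this list, 7 passed the filter for shGldc over NTC, with 1 at least 2-fold higher, beside 8.97% of all genes. This was Fbp2, a fructose bisphosphatase gene, at 7.70 FPKM in NTC and 23.5 in shGldc, a log2 ratio of 1.59. Fbp2 was at 1.18 FPKM in untreated mESCs, so the 2 controls lay farther apart, with a ratio of 2.61 in NTC over mESC. Pck2, the mitochondrial enzyme that makes phosphoenolpyruvate, was at 114.4 FPKM in MEFs, 58.9 in iPSCs, 24.0 in mESCs, 13.5 in NTC, and 8.62 in shGldc. Among the genes of the list that passed the filter, it was the lowest in mESCs over MEFs, iPSCs over MEFs, and shGldc over NTC, with log2 ratios of -2.25, -0.96, and -0.65.

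Among 10 genes of regulators of glucose uptake and glycolysis, 6 were at least 2-fold higher and 2 lower in mESCs than in MEFs, beside 30.3% and 23.3% of all genes. The same counts held for iPSCs over MEFs, beside 31.5% and 21.3%. The 3 genes of the MYC family were among those counted in both. Myc was at 31.3 FPKM in MEFs, 4.61 in iPSCs, 2.11 in mESCs, 19.1 in NTC, and 8.30 in shGldc. In the same order Mycn was at 0.71, 24.3, 35.3, 48.5, and 29.0, and Mycl at 1.77, 6.35, 5.95, 18.2, and 15.2. Mycn was low only in MEFs, while Myc was high in MEFs and NTC. In shGldc over NTC 8 of the 10 were lower by any size, beside 47.2% of all genes, with a median of -0.33. At least 2-fold lower was 1 of the 10, Myc at -1.19, beside 7.68%. Against untreated mESCs the ratio of Myc in shGldc was 1.93, so its direction depends on the control. The highest was Mlxipl, for the glucose-responsive factor ChREBP, at 0.30. Txnip, whose product restrains glucose uptake and is itself induced by glucose, was at 68.6 FPKM in MEFs, 623.8 in iPSCs, 301.7 in mESCs, 68.6 in NTC, and 56.9 in shGldc. Like Ldhb, it was high in the iPSC and untreated mESC libraries and low in MEFs, NTC, and shGldc. Hif1a was at 25.7 FPKM in MEFs and between 7.29 and 11.9 in the other libraries, and its log2 ratio in shGldc over NTC was 0.14. Epas1, for the other HIF alpha subunit of the list, was at 1.66 FPKM in MEFs, 9.46 in iPSCs, 10.7 in mESCs, 8.09 in NTC, and 4.70 in shGldc, a ratio of -0.77 in shGldc over NTC.

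A list of 18 hypoxia-response targets outside glycolysis was also followed. In shGldc over NTC 16 passed the filter, 9 lower and 7 higher by any size, beside 47.2% and 52.8% of all genes, with a median log2 ratio of -0.15. None was at least 2-fold lower and 2 were higher, beside 7.68% and 8.97%. The lowest was Ero1l at -0.91 and the highest Ddit4 at 1.34. In shGldc over mESC 12 of 17 were lower by any size and 8 at least 2-fold lower, beside 51.2% and 13.9% of all genes, with a median of -0.82. In NTC over mESC 16 of 17 were lower by any size, beside 54.4%, with a median of -0.59. The list thus read differently against the 2 controls. In mESCs over MEFs the lowest was Adm, at 22.9 FPKM in MEFs and 3.24 in mESCs, and the highest Pdk1, for the kinase that holds pyruvate back from mitochondria, at 3.76 and 33.6.

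The 2 members with the widest range over the 5 libraries were Slc2a3 and Ldhb, and the genes nearest to each were found by the Euclidean distance between log2(FPKM + 0.1) profiles centred on their mean over the 5 libraries, among 7647 genes that reached 10 FPKM. Nearest to Slc2a3 were Slc35f2 (distance 0.35), Jag2 (0.43), and Amt (0.46), the last of which encodes the aminomethyltransferase of the glycine cleavage system. Amt was at 0.53 FPKM in MEFs, 102.7 in iPSCs, 81.9 in mESCs, 75.7 in NTC, and 72.3 in shGldc. With a pseudocount of 1 in place of 0.1 none of these 3 remained among the nearest. Nearest to Ldhb were Sarnp (0.80), Eif4a2 (0.91), and Clybl (1.03), at larger distances. Eif4a2 was at 26.2 FPKM in MEFs, 157.3 in iPSCs, 174.1 in mESCs, 65.1 in NTC, and 60.5 in shGldc. With only 5 libraries this is a likeness of profiles and no more.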

How the data were processed

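RNA-seq was done on 5 mouse libraries, 1 per group. The authors extracted RNA with TRIzol, sequenced it on an Illumina HiSeq instrument, mapped the reads with TopHat2 2.1.0, assembled transcripts with StringTie 1.3.4d, and computed expression with Ballgown. They deposited FPKM values per gene in 2 separately made tables. The build was mm10 by the methods, and the submitters' processing notes list mm9 as well as mm10, and SAMtools 1.7. The annotation, strand setting, and filters are not given in the sources used here.

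From the deposited FPKM, log2(FPKM + 0.1) differences were taken over genes with at least 1 FPKM in either library. With 1 library per group no test was run. Paralog shares, step totals, and profile distances were computed from the same values. Alternatives were pseudocounts of 1 and 0.01, rescaling to the same FPKM sum, centring on the median, a minimum of 5 FPKM or none, all measured paralogs, and untreated mESCs as the control. A value was called moved when it differed by over 0.59 in log2 ratio, the robust SD of NTC over mESC, by over 1.5 times for a count, or, for a share or a step total, by more than the difference between NTC and mESC in that share or total.

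Depth came from the spacing of low FPKM values, times transcript length, of 5723 genes with 1 annotated transcript. Shared sequence was the share of a gene's 50-base stretches found in other GENCODE M21 genes (mm10). Promoters were taken from RefSeq (GRCm38.p6).

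The members and all lists were chosen with earlier results of these data known. The genes named were the 10 members, Gldc, every other paralog of a step with at least 1 FPKM in some library, genes of the middle of glycolysis with at least 10 FPKM, the highest and lowest ratio of each other list, and the nearest profiles. Srsf3, the Pfkfb genes, Tigar, Mycl, Txnip, Hif1a, and Epas1 were named in addition, after their values were seen. So were the marker genes Col1a1, Gata4, Gata6, T, Mixl1, Nes, Sox17, Foxa2, and Pax6. The log2 ratios were checked on simulated data. The tools were Python 3.11.15 with pandas 2.3.3, numpy 2.4.6, matplotlib 3.10.9, and scipy 1.17.1.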

Additional observations from a re-analysis of the deposited data

Results flagged for a closer look

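Hk1 had log2 ratios over MEFs of opposite sign in the 2 untreated pluripotent libraries, 1.19 in mESCs and -0.14 in iPSCs. Both ratios use the same MEF library, each group was 1 library, and the difference was not tested.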

How the results depend on the processing

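No paired analysis was possible because each group was 1 library. Of 504 values of the members and their steps under the alternatives, none that was called changed its direction and 27 moved. For the members at least 2-fold lower in iPSCs than in mESCs, rescaling the libraries to the same FPKM sum gave 2 in place of 1. Rescaling put the step totals at 68.5 FPKM for uptake in MEFs, 105.4, 154.7, and 172.6 for phosphofructokinase in MEFs, iPSCs, and mESCs, and 935.1 for lactate dehydrogenase in MEFs. It also brought the all-gene split for mESCs over MEFs from 3892 higher and 2997 lower to 3294 and 3450, and for iPSCs over MEFs from 4104 and 2770 to 3270 and 3372. With all measured paralogs in the denominator, the Slc2a3 share was 4.58% in MEFs, 60.4% in iPSCs, 64.3% in mESCs, 63.6% in NTC, and 68.7% in shGldc, and the Pfkp share in iPSCs was 27.3%. With all paralogs summed, uptake in MEFs was 82.5 FPKM, phosphofructokinase was 108.0 in MEFs, 207.8 in iPSCs, 236.0 in mESCs, 206.2 in NTC, and 122.2 in shGldc, and the export step was 54.7 in iPSCs, 73.1 in mESCs, 82.9 in NTC, and 36.5 in shGldc. Of the 3 nearest profiles, 0 were kept for Slc2a3 with a pseudocount of 1 and 0 for Ldhb with a minimum of 1 FPKM. Against untreated mESCs, the shGldc ratio was -2.52 for Hk1, -0.38 for Ldha, and -2.72 for Ldhb, and that of Slc2a1 turned from -0.12 to 0.04. Pfkp in shGldc over NTC, just inside the 2-fold threshold, was counted as lower with a pseudocount of 0.01, with rescaling, and with centring, which gave 4 members in place of 3. The cause of these shifts was not tested beyond what each setting does by its construction. Depth did not limit the members, but with 1 library per group the spread between cultures is unknown.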
